A study of Rattus norvegicus with 4 samples.

Results

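This account covers 10 genes of the growth hormone and insulin-like growth factor (IGF) axis in rat kidney: the ligand Igf1, the receptors Igf1r, Igf2r and Ghr, the binding proteins Igfbp3, Igfbp4, Igfbp5 and Igfbp7, and the transcription factors Stat5a and Stat5b. They were taken by their gene symbol in the platform annotation, which gave 16 of the 15866 probe sets that are not controls. Total RNA of kidney came from male rats aged 9 weeks. The question is how strain and nicotine before birth relate to kidney gene expression. The groups were the spontaneously hypertensive rat (SHR) exposed to nicotine before birth, SHR given saline before birth, Brown Norway (BN) rats exposed to nicotine before birth, and BN given saline before birth. RNA of 13 SHR nicotine animals, 12 SHR saline animals, 12 BN nicotine animals and 12 BN saline animals was combined in equal amounts into 1 pool for each group, and each pool was read on 1 Affymetrix RAE-230A array, so the spread between animals was not measured. The labels used here state neither the dose nor the timing of nicotine.

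Growth hormone binds its receptor Ghr on target cells and, through the kinase Jak2, activates Stat5a and Stat5b, which switch on genes such as Igf1. IGF1 signals through the receptor kinase Igf1r. Igf2r carries IGF2 to lysosomes for breakdown, and sorts mannose 6-phosphate tagged enzymes to lysosomes, where they work. The binding proteins hold IGFs in the circulation and in tissue and limit or prolong their access to the receptor. In the kidney, the axis is known for its part in glomerular filtration, tubular transport and compensatory growth.

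Values are MAS5 signal, an intensity on an arbitrary linear scale, so that levels of different probe sets cannot be ranked against each other. A probe set entered the tests if its mean over the 4 arrays, on the log2 scale, was at least that of a signal of 89.0. This was 2 times a floor of 44.5, to which lower signals were raised. Of the 16 probe sets, 14 passed, covering 9 of the 10 genes, and in all 6678 probe sets passed. The probe set of Stat5b and 1 of the 3 probe sets of Igfbp5 did not.

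For 4 genes with a probe set higher in SHR, described further on, the 250 bases before the gene's start are shown (RefSeq, build GRCr8, which is a genome of the BN strain). Capitals mark matches, on either strand, to 4 motifs searched there: TTCNNNGAA, the core of the element bound by Stat5; the palindromic CLEAR element of lysosomal genes, given by name; TATAAA, the TATA box; and GGGCGG, the GC box bound by Sp1. Searched motifs did not overlap one another in these sequences.
Igf1, chr7:24172282-24172531, plus strand: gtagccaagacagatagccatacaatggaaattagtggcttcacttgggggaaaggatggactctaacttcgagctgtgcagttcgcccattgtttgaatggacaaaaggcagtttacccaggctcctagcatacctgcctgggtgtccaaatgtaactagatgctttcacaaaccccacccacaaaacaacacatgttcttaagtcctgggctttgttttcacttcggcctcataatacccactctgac
Igf2r, chr1:50526628-50526877, plus strand: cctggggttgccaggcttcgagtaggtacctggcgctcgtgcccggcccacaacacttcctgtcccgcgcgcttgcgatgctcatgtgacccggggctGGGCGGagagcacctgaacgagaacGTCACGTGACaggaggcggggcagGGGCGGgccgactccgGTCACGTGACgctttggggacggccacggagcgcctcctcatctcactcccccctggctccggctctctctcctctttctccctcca
Igfbp3, chr14:86277945-86278194, minus strand: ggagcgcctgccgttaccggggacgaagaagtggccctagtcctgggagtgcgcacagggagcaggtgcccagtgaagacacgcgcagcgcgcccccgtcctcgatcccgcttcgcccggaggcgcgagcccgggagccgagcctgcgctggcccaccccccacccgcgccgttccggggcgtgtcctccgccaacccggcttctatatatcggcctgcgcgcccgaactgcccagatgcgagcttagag
Igfbp7, chr14:31091486-31091735, plus strand: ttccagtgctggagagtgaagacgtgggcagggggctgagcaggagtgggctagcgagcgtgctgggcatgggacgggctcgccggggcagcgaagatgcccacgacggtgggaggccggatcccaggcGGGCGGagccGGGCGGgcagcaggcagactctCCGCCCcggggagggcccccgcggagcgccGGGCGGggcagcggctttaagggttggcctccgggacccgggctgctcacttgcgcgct
All 10 genes had an entry. The Stat5 core was found in 0 of the 10 windows, against 7.67% of the 33469 promoters of the same length, so these letters were not in these windows. The CLEAR element was found in the Igf2r window, 127 and 87 bases before the start, and in 0.203% of all promoters. GC boxes were found in 5 of the 10 windows (Igf1r, Igf2r, Igfbp7, Stat5a and Stat5b), against 30.5% of all promoters. A TATAAA stood 40 bases before the start of Igfbp4, and 12.9% of all promoters held one. These matches describe the sequence and say nothing of binding in these kidneys.

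Averaged over treatments, 7 of 14 probe sets, of the 5 genes Igf1, Igf2r, Igfbp3, Igfbp7 and Ghr, were higher in SHR than in BN at an adjusted p under 0.05 (limma, additive model of strain and treatment), and 0 were lower. Among all probe sets tested, 17.3% were called, 8.13% higher and 9.13% lower. At an unadjusted p under 0.05 there were 8 of 14, against 29.7% of all probe sets. The median log2 difference of the 14 was 0.25, against -0.001 over all probe sets tested. The members were chosen with earlier results of these data known, so these shares only describe them. Igf2r and Igfbp3 each count with 2 probe sets, and with 1 probe set per gene 4 of 9 members were called. The model has 2 arrays per strain and 1 residual degree of freedom. With 15.5 prior degrees of freedom, the error of each probe set was taken mostly from other probe sets of like signal. The p-values therefore rest on that shared error and on these 4 arrays, and do not measure the spread between animals. In bulk kidney RNA, more cells of a type and more RNA per cell cannot be told apart.

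**Figure D1:**
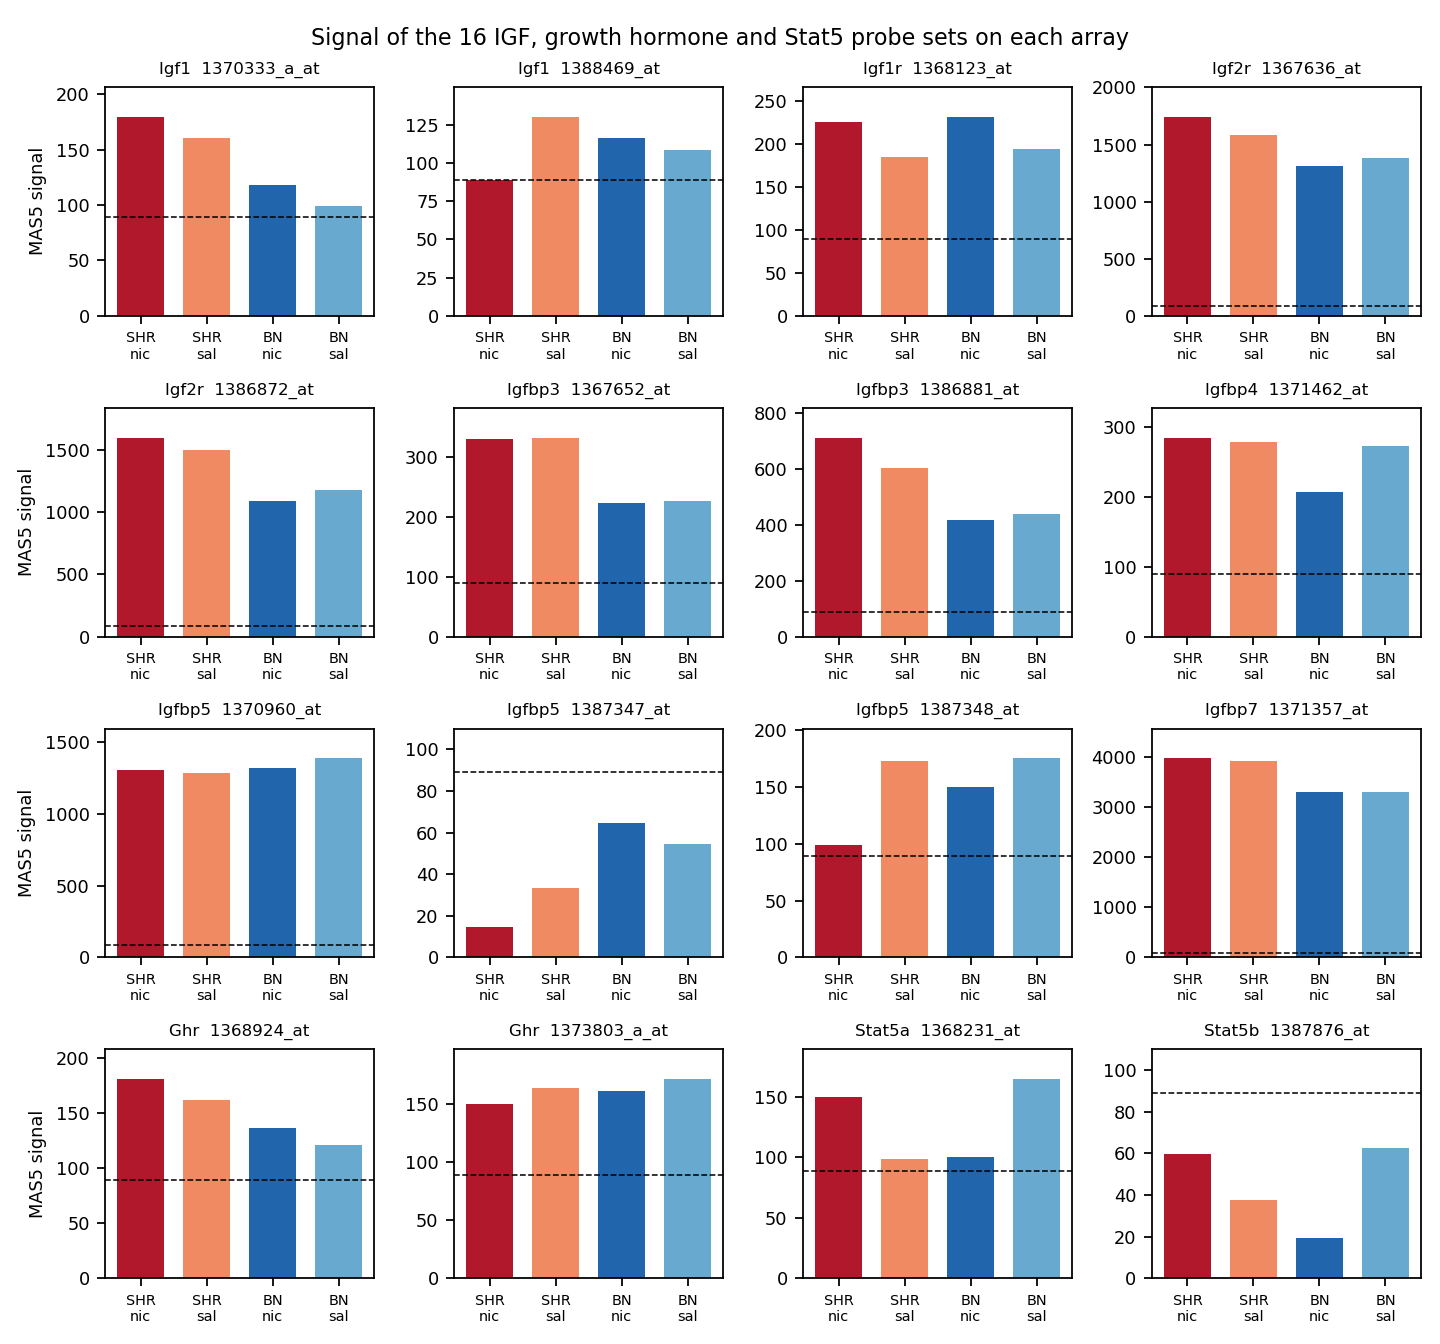
MAS5 signal (vertical axis, linear) of each of the 16 probe sets on the 4 arrays, from left to right nicotine and saline pools of SHR, then nicotine and saline pools of BN; each bar is 1 array of pooled RNA, and the dashed line is a signal of 89.0. Both SHR bars stand above both BN bars for Igfbp3, Igf2r, Igfbp7, the first probe sets of Igf1 and Ghr and, narrowly, Igfbp4. Stat5a is high in SHR nicotine and BN saline.

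Igf1 encodes the growth factor that mediates many actions of growth hormone. Its probe set 1370333_a_at read 179.8 in SHR nicotine and 160.7 in SHR saline, against 118.1 in BN nicotine and 99.3 in BN saline. Both SHR pools lay above both BN pools, and within each strain the nicotine pool was the higher one. The strain log2 difference was 0.65, a 1.57-fold higher level in SHR (SE 0.14, 95% confidence interval 0.36 to 0.94, adjusted p = 0.00259 with limma). With strain as the only factor and SHR nicotine left out the adjusted p was 0.0553, and without BN saline 0.0905. The second probe set, 1388469_at, gave no such difference: it read 89.1 in SHR nicotine and 130.1 in SHR saline, against 116.4 in BN nicotine and 108.6 in BN saline. Its pools overlapped between strains, and its strain log2 difference was -0.06 (95% confidence interval -0.42 to 0.30, adjusted p = 0.85 with limma). The 2 probe sets of Igf1 thus disagree, and the higher level in SHR rests on 1 of them. In Affymetrix naming, the suffix _a_at marks a probe set that reads alternative transcripts of 1 gene.

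Igf1r, the receptor kinase through which IGF1 acts, did not pass the test between strains. It read 225.0 in SHR nicotine and 184.6 in SHR saline, against 231.3 in BN nicotine and 194.3 in BN saline. The strain log2 difference was -0.06, and the 95% confidence interval of -0.29 to 0.18 leaves room for small differences in either direction. The order of the 4 pools followed the treatment instead, as given below for nicotine.

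Igf2r, the cation-independent mannose 6-phosphate receptor, was higher in SHR on both of its probe sets. Probe set 1367636_at read 1743.0 in SHR nicotine and 1587.7 in SHR saline, against 1313.2 in BN nicotine and 1377.9 in BN saline. Probe set 1386872_at read 1599.5 in SHR nicotine and 1496.1 in SHR saline, against 1090.0 in BN nicotine and 1181.0 in BN saline. The strains did not overlap on either one. The log2 difference was 0.31 for the first (SE 0.07, adjusted p = 0.00509 with limma) and 0.45 for the second (SE 0.07, adjusted p = 0.000233 with limma), or 1.24-fold and 1.36-fold. The annotation gives both the same source accession, so they are not independent readings of the gene. With strain as the only factor, the call of 1367636_at was lost without BN nicotine (adjusted p = 0.133, limma) and without BN saline (0.0676), while that of 1386872_at held without each array in turn. Without the intensity trend in the model neither was called, with adjusted p of 0.129 and 0.0521.

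**Figure D2:**
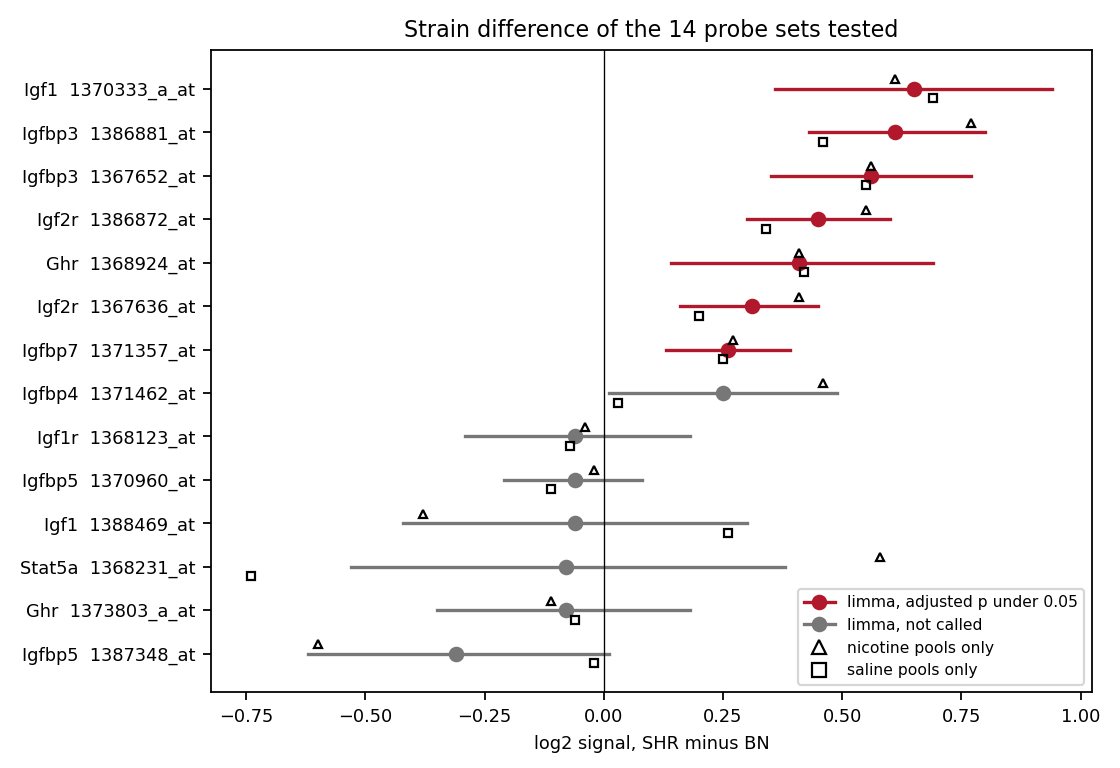
Log2 signal of SHR minus BN (horizontal axis) for the 14 probe sets tested; filled circles and lines are the limma estimate and its 95% confidence interval, red where the adjusted p is under 0.05, with open triangles for the nicotine pools alone and open squares for the saline pools alone. The called probe sets all lie to the right of 0 under both treatments, from 0.20 to 0.77, and for Stat5a the nicotine and saline values lie on opposite sides of 0.

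Igfbp3, the main IGF carrier of blood, had the smallest adjusted p between strains among the 10 genes. Probe set 1386881_at read 712.3 in SHR nicotine and 602.6 in SHR saline, against 418.0 in BN nicotine and 439.3 in BN saline. Probe set 1367652_at read 330.1 in SHR nicotine and 333.0 in SHR saline, against 223.5 in BN nicotine and 227.1 in BN saline. The lowest SHR pool was above the highest BN pool on both. The log2 differences were 0.61 (SE 0.09, 95% confidence interval 0.43 to 0.80, adjusted p = 8.64e-05 with limma) and 0.56 (SE 0.10, 95% confidence interval 0.35 to 0.77, adjusted p = 0.000611), or 1.53-fold and 1.47-fold. Both calls held without each array in turn, with adjusted p from 0.00055 to 0.0363 for the first and from 0.00818 to 0.0336 for the second. These 2 probe sets also share a source accession in the annotation.

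Igfbp7, a secreted protein of vessel walls that binds IGFs weakly, was also higher in SHR. It read 3963.8 in SHR nicotine and 3908.7 in SHR saline, against 3286.1 in BN nicotine and 3294.2 in BN saline. The pools of a strain were close together, and the strains stood apart by a log2 difference of 0.26, or 1.20-fold (SE 0.06, adjusted p = 0.00694 with limma). Without BN nicotine the adjusted p was 0.0724 and without BN saline 0.0671, with the log2 difference at 0.26 both times. Without the intensity trend it was 0.155.

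Igfbp4, an inhibitor of IGF action that the protease PAPP-A cleaves, read 284.3 in SHR nicotine and 278.2 in SHR saline, against 206.8 in BN nicotine and 271.6 in BN saline. The BN saline pool was close to the SHR pools though below both, and the strain log2 difference of 0.25 did not pass (SE 0.11, adjusted p = 0.157 with limma).

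Igfbp5, a binding protein that also binds extracellular matrix, was read by 3 probe sets. The brightest, 1370960_at, read 1303.8 in SHR nicotine and 1286.3 in SHR saline, against 1320.7 in BN nicotine and 1387.1 in BN saline. Its strain log2 difference was -0.06, with a 95% confidence interval of -0.21 to 0.08, which is narrower than that of most members. Probe set 1387348_at read 99.0 in SHR nicotine and 172.9 in SHR saline, against 150.0 in BN nicotine and 175.0 in BN saline. Here the SHR nicotine pool was the low one, and the strain log2 difference of -0.31 did not pass (adjusted p = 0.178 with limma). Without SHR saline it was -0.71 (adjusted p = 0.0175) and without SHR nicotine it was 0.09, so its sign rests on the SHR nicotine pool. Probe set 1387347_at stayed below 89.0 on every array, at 14.5 in SHR nicotine and 33.5 in SHR saline, against 64.6 in BN nicotine and 54.4 in BN saline.

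Ghr, the growth hormone receptor, gave different answers on its 2 probe sets. Probe set 1368924_at read 180.8 in SHR nicotine and 161.7 in SHR saline, against 136.2 in BN nicotine and 121.2 in BN saline. Both SHR pools were above both BN pools, and the log2 difference was 0.41, or 1.33-fold (SE 0.13, 95% confidence interval 0.14 to 0.69, adjusted p = 0.0369 with limma). This call did not hold without any 1 of the arrays: the adjusted p was 0.193 without SHR nicotine, 0.0612 without SHR saline, 0.112 without BN nicotine and 0.255 without BN saline. It was also lost with strain as the only factor and all 4 arrays (0.0561), with quantile normalisation (0.0721) and with a lower floor (0.0555). The same held without the intensity trend (adjusted p = 0.0501 with limma) and with no filter on low signals (0.386). Probe set 1373803_a_at read 149.7 in SHR nicotine and 164.1 in SHR saline, against 161.1 in BN nicotine and 171.5 in BN saline, with overlapping strains and a log2 difference of -0.08 (adjusted p = 0.704 with limma). No strain difference shared by both probe sets of Ghr was therefore seen.

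Stat5a, the first of the paired transcription factors activated by Ghr, read 149.9 in SHR nicotine and 99.0 in SHR saline, against 100.4 in BN nicotine and 164.8 in BN saline. The strains overlapped, with a log2 difference of -0.08 and the widest interval of the members, -0.53 to 0.38 (adjusted p = 0.85 with limma). The log2 ratio of SHR to BN was 0.58 under nicotine and -0.74 under saline, both outside that interval. Stat5b stayed below 89.0, at 59.8 in SHR nicotine and 37.7 in SHR saline, against 19.5 in BN nicotine and 62.8 in BN saline, so that no change in it could be tested. The 2 genes are close paralogs that lie next to each other with 0 protein-coding genes between them, and whether their probe sets read each other's transcripts was not tested.

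The single pairs of pools have no test. At 1.5-fold, 2 members were higher and 1 lower in SHR under nicotine, where 3.07% and 3.65% of all probe sets were (6.72% in all), and 1 was higher and 1 lower under saline, where 3.07% and 3.46% were (6.53% in all). Under nicotine these were Igfbp3 (1386881_at, 1.70-fold higher), Igf1 (1370333_a_at, 1.52-fold higher) and Igfbp5 (1387348_at, 1.51-fold lower). Under saline they were Igf1 (1370333_a_at, 1.62-fold higher) and Stat5a (1.66-fold lower). Igf2r, Igfbp7 and Ghr passed 1.5-fold in neither pair, and the lower ones, Igfbp5 1387348_at and Stat5a, were not called in the average. Of the 14 probe sets, 12 had the same direction of strain difference under both treatments (85.7%), against 70% of all probe sets tested. The strains did not overlap for 9 of the 14, close to the 58.9% of all probe sets tested.

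Prenatal nicotine did not move any of these genes past the test when averaged over strains. With limma, 0 of 14 probe sets had an adjusted p under 0.05, where 0.0449% of all probe sets did, namely 3 of 6678, or 0.015% higher and 0.0299% lower. At an unadjusted p under 0.05 there were 2 of 14, Igfbp5 (1387348_at) and Igf1r, against 5.08% of all probe sets. The median log2 difference of the 14 was -0.01, against 0.000 over all probe sets tested.

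Igf1r was higher in the nicotine pool of each strain. It read 225.0 in SHR nicotine against 184.6 in SHR saline, and 231.3 in BN nicotine against 194.3 in BN saline, so both nicotine pools lay above both saline pools. That lack of overlap was found in 19.8% of all probe sets tested. The log2 ratio was 0.29 in SHR and 0.25 in BN, and the average of 0.27 (SE 0.11, 95% confidence interval 0.03 to 0.50, adjusted p = 0.817 with limma) did not pass the adjustment over all probe sets.

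Igfbp5 on probe set 1387348_at was lower in both nicotine pools, at 99.0 in SHR nicotine against 172.9 in SHR saline and at 150.0 in BN nicotine against 175.0 in BN saline. The ratio was 1.75-fold lower in SHR and 1.17-fold lower in BN, with an average log2 difference of -0.51 (SE 0.15, 95% confidence interval -0.83 to -0.20, unadjusted p = 0.00321 and adjusted p = 0.389 with limma, rank 54 of 6678 by p). The brighter probe set of the gene, 1370960_at, differed by a log2 average of -0.03 (95% confidence interval -0.17 to 0.12). The probe sets of Igfbp5 therefore did not share a nicotine difference.

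Stat5a had nicotine ratios in opposite directions. Its level in the nicotine pool was 1.51-fold higher in SHR (149.9 against 99.0) and 1.64-fold lower in BN (100.4 against 164.8), with log2 ratios of 0.60 and -0.72. Of all 6678 probe sets tested it was the only 1, or 0.015%, that was past 1.5-fold in opposite directions in SHR and BN, whichever way. With log2 of signal plus 32 its ratios were 0.47 and -0.57, under 1.5-fold in each strain. Past a log2 ratio of 0.32 in opposite directions, whichever way, there were 0.824%. The SD of the log2 ratio over all probe sets tested was 0.20 in SHR and 0.18 in BN. Those SDs cover all signal levels, while the lower Stat5a signals of 99.0 and 100.4 lay close to the filter signal of 89.0. With 1 array in each group the difference between the strains' responses has no test, and the average over strains was -0.06 (adjusted p = 0.998 with limma). Stat5b had the same order of pools within each strain, 59.8 in SHR nicotine against 37.7 in SHR saline and 19.5 in BN nicotine against 62.8 in BN saline, at signals below 89.0.

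**Figure D3:**
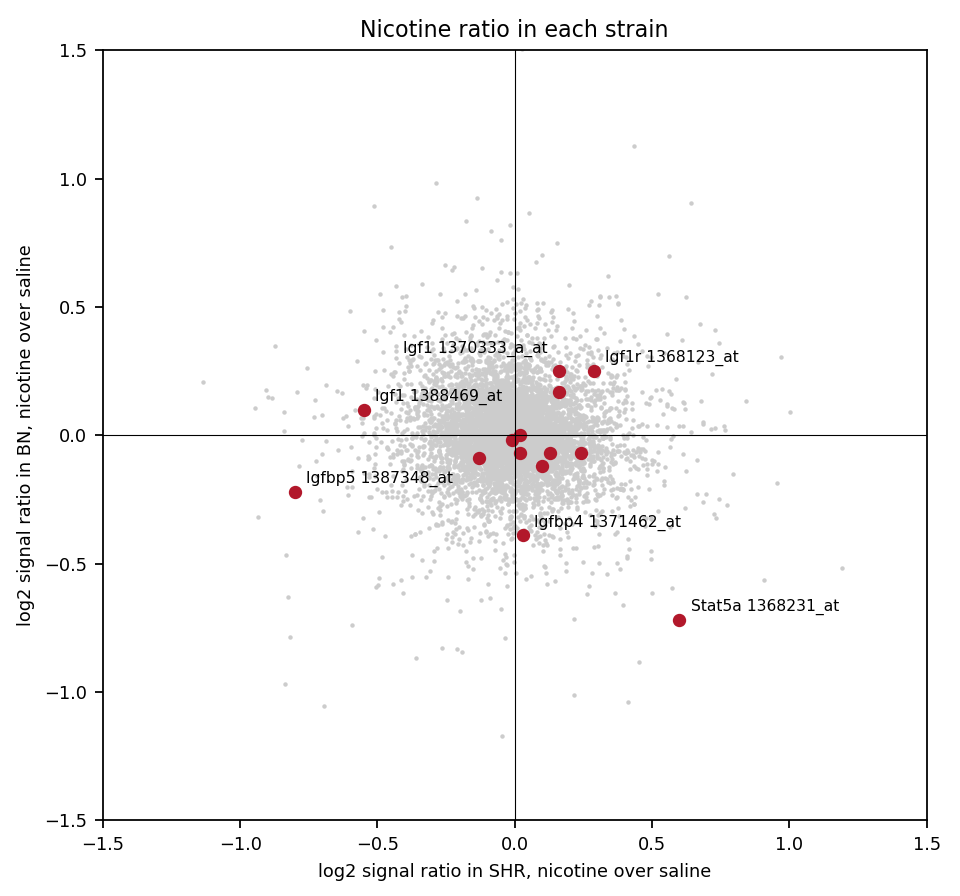
Log2 ratio of nicotine over saline in SHR (horizontal axis) against the same ratio in BN (vertical axis); grey points are all probe sets tested, 2 of which lie outside the range shown, and red points are the 14 of this axis. Stat5a lies far to the lower right, at 0.60 and -0.72, Igfbp5 1387348_at far to the left, and Igf1r above 0 on both axes.

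Igf1 was 1.12-fold and 1.19-fold higher under nicotine in SHR and BN on 1370333_a_at, and 1.46-fold lower and 1.07-fold higher on 1388469_at, with average log2 differences of 0.21 and -0.22 (adjusted p = 0.998 for both with limma). Ghr was 1.12-fold higher in each strain on 1368924_at and 1.1-fold and 1.06-fold lower on 1373803_a_at. The averages of the 2 probe sets had opposite signs for each gene, while in BN both Igf1 probe sets were higher under nicotine, and none of these probe sets passed. Igfbp4 was 1.31-fold lower in BN and 1.02-fold higher in SHR. Igf2r, Igfbp3 and Igfbp7 were at most 1.18-fold apart on every probe set, and their average log2 differences lay between -0.02 and 0.08. At 1.5-fold, 1 member was higher and 1 lower in SHR (each direction held 0.629% of all probe sets, and both 1.26%), and 0 were higher and 1 lower in BN (0.404% and 0.449%, and both 0.854%). Of the 14, 6 had the same direction in both strains (42.9%), against 48.7% of all probe sets tested.

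Other genes of the axis were read from 5 lists of 73 genes besides the members. On the array were 62 of them, each taken by its brightest probe set, and 30 passed the signal filter. Between strains 2 were higher and 2 lower in SHR with limma (13.3%, where 17.3% of all probe sets were called), and for nicotine 0 of the 30 were called. Among 5 measured ligands, carriers and proteases, 2 were higher in SHR and 3 were not called, with a median log2 difference of 0.16. Htra1, a secreted protease that cleaves binding proteins, read 465.4 in SHR nicotine and 457.1 in SHR saline, against 331.1 in BN nicotine and 298.3 in BN saline. Its log2 difference was 0.55 (adjusted p = 0.000243 with limma). Stc1, a stanniocalcin that inhibits PAPP-A, read 135.6 in SHR nicotine and 187.1 in SHR saline, against 96.7 in BN nicotine and 92.9 in BN saline. Its log2 difference was 0.75 (adjusted p = 0.00257 with limma). The Stc1 call was lost without SHR saline (adjusted p = 0.0678), BN nicotine (0.0834) or BN saline (0.0969).

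In the signalling branches between receptor and nucleus, the genes that passed the filter gave no call between strains. None of 5 genes of the insulin receptor family and its adaptors, 4 of growth hormone receptor signalling and 13 of the PI3K, Akt and mTOR branch was called, with medians of 0.04, 0.00 and -0.02. Pik3r1, a regulatory subunit of PI3K, did not pass the filter on the mean over 4 arrays, but read 4.3 in SHR nicotine and 13.5 in SHR saline, against 99.9 in BN nicotine and 91.4 in BN saline. With the SHR values raised to the floor its log2 ratio was -1.17 under nicotine and -1.04 under saline, further from 0 than that of any gene tested in these lists. Among the genes tested, the furthest values were 0.35 for Rptor, the scaffold of mTOR complex 1 (adjusted p = 0.119 with limma), and -0.29 for Pik3r2, another regulatory subunit (adjusted p = 0.291). Irs2, an adaptor of the insulin and IGF1 receptors, read 151.6 in SHR nicotine and 114.2 in SHR saline, against 102.7 in BN nicotine and 143.1 in BN saline. In the receptor branch Jak2, Socs1, Socs2, Socs3 and Cish did not reach the filter, so the kinase and the feedback inhibitors of growth hormone signalling were not measured.

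Of 10 known Stat5 target genes on the array 4 were measured, 1 of them the member Igf1. Cyp2c11, a cytochrome that growth hormone controls in male rat liver, read 811.9 in SHR nicotine and 623.6 in SHR saline, against 1288.9 in BN nicotine and 1221.0 in BN saline, a log2 difference of -0.82 (adjusted p = 1.03e-06 with limma). The Cyp2c genes are similar in sequence, and whether its probe set reads other members was not tested. Ccnd1, the G1 cyclin D1, read 522.3 in SHR nicotine and 448.4 in SHR saline, against 669.2 in BN nicotine and 632.5 in BN saline, a log2 difference of -0.43 (adjusted p = 0.00102 with limma). Its other probe sets gave -0.44 and -0.40. Without BN nicotine the adjusted p of Ccnd1 was 0.116 and without BN saline 0.0652. Bcl2l1, an inhibitor of apoptosis, differed by -0.07 and was not called. Igf1 was thus higher in SHR on 1 probe set while Cyp2c11 and Ccnd1 were lower.

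**Figure D4:**
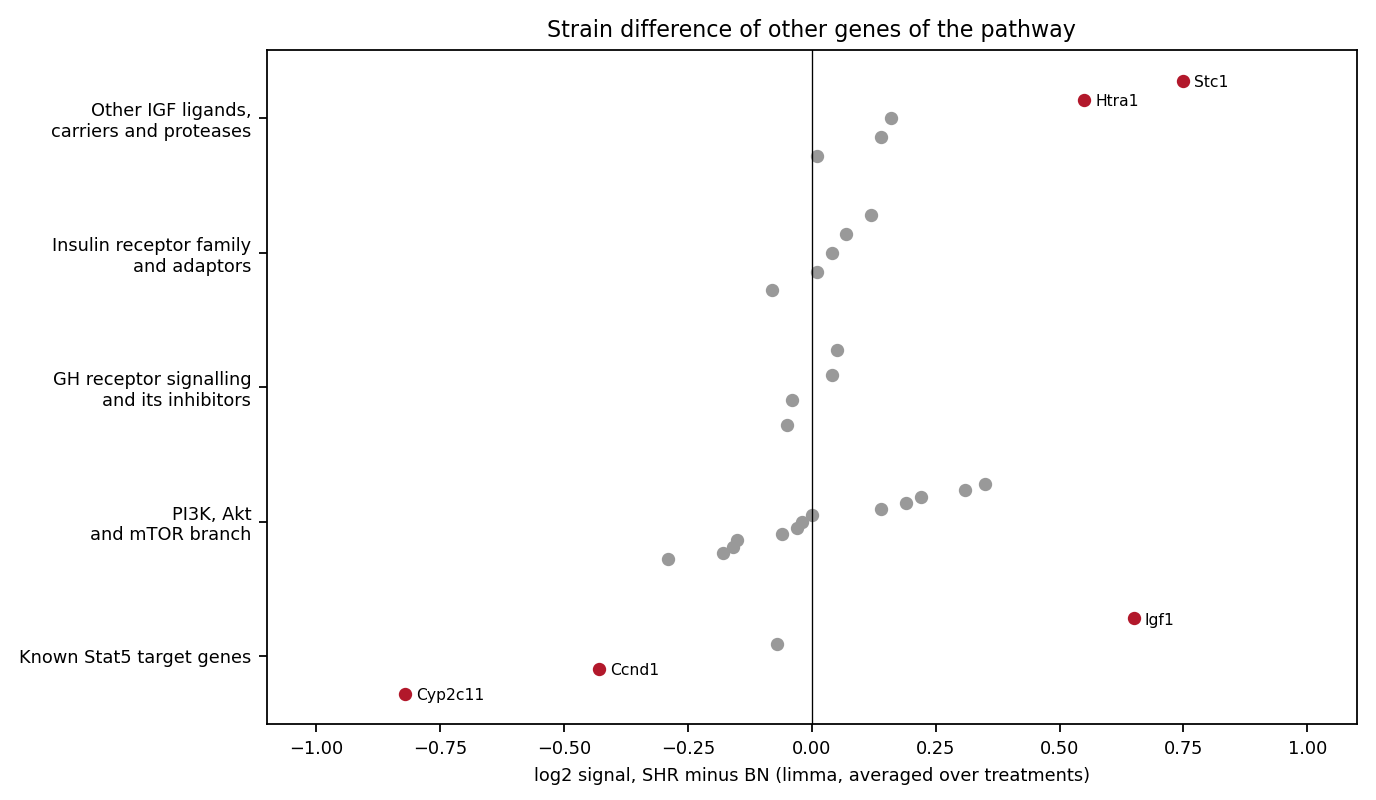
Log2 signal of SHR minus BN from limma (horizontal axis) for the measured genes of 5 lists (rows), 1 point a gene, red where the adjusted p is under 0.05. Stc1 and Htra1 lie at 0.75 and 0.55, the member Igf1 at 0.65, Ccnd1 and Cyp2c11 at -0.43 and -0.82, and all genes of the 3 signalling lists are grey.

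Igf1, Igf2r, Igfbp3, Igfbp7 and Ghr were set beside the other genes by their profile over the 4 pools, for the called probe sets. The distance used was the Euclidean distance over 4 arrays of log2 signals, each less its own mean. The nearest probe set of another gene was C1qc for Igf1 1370333_a_at (distance 0.06), Cggbp1 and Ss18l2 for the probe sets of Igf2r (0.02 and 0.04), Twf1 and Ifi27 for those of Igfbp3 1367652_at and 1386881_at (both 0.03), Mdh2 for Igfbp7 (0.01) and Dpt for Ghr 1368924_at (0.02). With 4 points a profile of this kind mostly restates the strain difference, and no test was made.

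The tissue label was checked on tubular markers. Of the thick ascending limb markers, Umod (uromodulin) read 5255.5 in SHR nicotine and 5260.3 in SHR saline, against 4076.2 in BN nicotine and 4043.8 in BN saline, and Slc12a1, the sodium-potassium-chloride cotransporter, read 531.5 in SHR nicotine and 515.0 in SHR saline, against 849.7 in BN nicotine and 929.9 in BN saline. The strain difference was called for both, in opposite directions, at log2 0.37 and -0.76. Of 3 liver, 3 adipocyte and 2 adrenal markers on the array, 0 reached the filter. Cell type markers differed between strains in both directions. Summed over 5 of 6 endothelial markers on the array, the signal was 1694 in SHR nicotine and 1617 in SHR saline, against 1517 in each BN pool, with Flt1 below the filter and 1 of 5, Kdr, called higher. Pecam1 was at -0.19 and not called. The Kdr call was lost without SHR nicotine (adjusted p = 0.0673, limma), BN nicotine (0.112) or BN saline (0.136). For all 5 fibroblast markers the sums were 1649 in SHR nicotine and 1673 in SHR saline, against 1438 in BN nicotine and 1357 in BN saline, with Col3a1 called higher and Col1a1 at -0.19, not called. For 2 of 5 immune markers they were 3449 in SHR nicotine and 2895 in SHR saline, against 2409 in BN nicotine and 2167 in BN saline, with Lyz2 called at a log2 difference of 0.77 and Ptprc, Cd68 and Laptm5 below the filter. Of 6 proximal tubule markers 4 were called higher and 1, Cubn, lower. Called lower in SHR were also the distal tubule marker Slc12a3 (-0.32), the collecting duct markers Aqp2 (-0.41) and Aqp3 (-0.30) and the podocyte marker Podxl (-0.55). The other collecting duct markers, Scnn1g (0.42) and Scnn1b (0.27), lay in the opposite direction and were not called. Calb1 of the distal tubule (0.03) and Synpo of podocytes (-0.10) were not called either. The 4 collecting duct markers summed to 1496 and 1722 in the SHR nicotine and saline pools. In the BN nicotine and saline pools they summed to 1819 and 1928. For 2 of 3 podocyte markers on the array, the sums were 545 and 553 in SHR, against 693 and 687 in BN, in the same order. Each sum is weighted towards its brightest probe sets. Beta-actin probe sets at the 3' and 5' ends of the transcript, whose ratio moves with RNA integrity, gave ratios of 1.34 in SHR nicotine and 1.39 in SHR saline, against 1.49 in BN nicotine and 1.54 in BN saline. The same ratio for GAPDH was 1.11 in SHR nicotine and 1.0 in SHR saline, against 1.09 in BN nicotine and 1.07 in BN saline, and did not separate the strains. The part of cell make-up and RNA integrity in the strain differences of Igf1, Igf2r, Igfbp3, Igfbp7 and Ghr was not tested.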

How the data were processed

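The authors deposited 1 intensity per probe set and array, and the submitters' processing notes name MAS5, with no version. The trimmed mean, with 2% left out at each end, was 150.0 on each of the 4 arrays. Of 15923 probe sets, 57 controls were left out. Symbols came from the platform annotation, updated through gene identifiers to RefSeq, and 12783 probe sets had 1 symbol, 312 several and 2771 none. Signals below 44.5, the 40th percentile, were raised to that floor, and log2 values were fitted with limma 3.58.1 in R 4.3.3 (lmFit, eBayes with intensity trend, 15.5 prior degrees of freedom) and adjusted by Benjamini-Hochberg over 6678 probe sets. Tests ran on probe sets, because the members are defined as such. Comparisons of 2 single arrays had no test. The number of arrays limits the precision.

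Genes were named by rule: every member probe set, called genes of 5 pathway lists or else those furthest from 0, and for each called member probe set the 3 nearest profiles, of which the nearest is given. Members and lists were chosen with earlier results of these data known. Alternatives covered the floor, scaling, a pseudocount of 32, the filter, the trend, 1 probe set per gene and leaving out each array. The fits were tested on simulated arrays with independent noise, sized from the residuals of these 4 arrays. Of 67 probe sets changed 1.5-fold, 63 were recovered for strain and 60 for nicotine, and of 6478 unchanged ones 9 and 4 were called. The simulation held no nicotine response that differs between strains, so how the calls behave with 1 pool per group was not tested.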

Additional observations from a re-analysis of the deposited data

Results flagged for a closer look

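The nicotine ratio of Stat5a ran in opposite directions in the strains, past a log2 ratio of 0.32 in each, as it did in 0.824% of all probe sets tested. The log2 ratio in SHR minus that in BN was 1.31. The same holds for Stat5b, with a difference of 0.92 between signals raised to the floor where they were lower, all of them below 89.0. With 1 array in each group neither difference was tested.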

How the results depend on the processing

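Between strains, 1153 probe sets and 7 of 14 members were called. With no filter on low signals 0 of either were called (1719 probe sets at an unadjusted p under 0.05), without the intensity trend 576 and 3, with quantile normalisation 675 probe sets, and with 1 probe set per gene 4 of 9 members. Leaving out each array in turn, with strain as the only factor, gave 426 to 863 probe sets and 3 to 7 members. Igfbp3 kept its calls except with no filter. Signs turned only where an array was left out, in probe sets that were not called: without SHR nicotine Igf1 1388469_at (0.21) and Igfbp5 1387348_at (0.09), without SHR saline Igf1r (0.09) and Stat5a (0.22), without BN nicotine Igf1r (0.07), and without BN saline Stat5a (0.28). Their ranges were -0.33 to 0.21, -0.71 to 0.09, -0.20 to 0.09 for Igf1r and -0.44 to 0.28 for Stat5a.

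For nicotine averaged over strains, 3 probe sets were called as reported, 18 with a floor set at percentile 60, and 0 with no filter (460 at an unadjusted p under 0.05), without the trend (323), with the filter on the higher group mean (376), with quantile normalisation (257) or with log2 of signal plus 32 (331), all with limma, and 0 members were called in any of the 8 alternatives with a test. Leaving out an array leaves the ratio of the other strain, with no test.

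Counts past 1.5-fold depend on the treatment of low signals. For nicotine in SHR 84 probe sets and 2 members passed as reported, 565 and 4 with a floor set at percentile 20, 11 and 0 at percentile 60, 35 and 1 with log2 of signal plus 32, 268 probe sets with no filter and 140 with the filter on the higher group. For nicotine in BN 57 and 1 passed as reported, and 472 and 2, 10 and 0, 27 and 0, 186, and 113 in these alternatives. For strain under nicotine 449 and 3 passed as reported, 1197 and 5 with the lower floor, 204 and 1 with the higher one, 1 member with log2 of signal plus 32, and 796 probe sets with no filter. For strain under saline 436 and 2 passed as reported, and 1119 and 4, 206 and 0, 1 member, and 753 probe sets. No paired analysis was possible because each group has 1 array and the labels carry no replicate numbers.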

Other observations

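Pik3r1, which encodes the p85 alpha regulatory subunit that couples PI3K to the IGF1 and insulin receptors, was chosen after its values were seen. Its probe set, given with the signalling branches above, read 4.3 in SHR nicotine and 13.5 in SHR saline, against 99.9 in BN nicotine and 91.4 in BN saline. Both SHR pools lay below the floor of 44.5, so the signal of this probe set was at least 2.24-fold lower in SHR under nicotine. Under saline it was at least 2.05-fold lower. Whether the transcript level of the gene differs by as much was not tested. The mean over 4 arrays kept this probe set out of the tests above. It is the only probe set named Pik3r1 here, and the catalytic subunit gene Pik3ca read 98.8 in SHR nicotine and 112.6 in SHR saline, against 125.5 in BN nicotine and 91.3 in BN saline.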
